A study of Mus musculus with 18 samples.

Results

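The synaptonemal complex genes are 10 genes that were chosen by name: Sycp1, Sycp2, Sycp3, Syce1, Syce2, Syce3, Tex12, Hormad1, Hormad2 and Trip13. Each was found in the expression table through its NCBI Gene number, 1 row per gene, out of 22657 rows in all. All 10 passed the filter on low values (at least 1 FPKM in at least 3 samples), which 15790 genes passed. The values came from RNA-seq of 18 samples of cultured testes of ICR mice, 3 samples in each of 6 groups. Mice without busulfan gave A0, A10 and A50, whose medium held alginate oligosaccharides (AOS, short sugar chains made from alginate) at 0, 10 or 50 μg/mL. Mice injected once with busulfan, 40 μg per g body weight, gave B0, BA10 and BA50, at the same 0, 10 or 50 μg/mL of AOS. Busulfan alkylates DNA and is known to deplete proliferating germ cells. The busulfan mice were 3 weeks old at injection and 2 weeks older at collection. The mice without busulfan were matched to them in age, and the methods mention no vehicle injection for them. All 6 groups shared DMEM/F12 medium with 10% FBS and 48 h of culture. For AOS the series' design text states mg per kg, but the labels of the samples and the methods state μg/mL of medium, and that unit is used here. The methods give 6 testes per treatment and 3 repeats but do not say which testes entered a sample, so p-values measure only the spread between these samples, which may be technical.

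In meiotic prophase each pair of homologous chromosomes is joined along its length by the synaptonemal complex. SYCP2 and SYCP3 build the axial elements that become the lateral elements, HORMAD1 and HORMAD2 sit on axes that have not yet synapsed, and TRIP13 is the ATPase that removes the HORMAD proteins as synapsis proceeds. SYCP1 spans the gap as the transverse filament, and SYCE1, SYCE2, SYCE3 and TEX12 form the central element in the middle. In the mouse testis these genes are known from spermatocytes, the germ cells that lie between spermatogonia and spermatids.

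The unit is FPKM, fragments per length of transcript and per depth of library, which allows levels of different genes to be set side by side. The reads behind the values are unknown, so precision was judged from the 3 samples of each group. The number of genes at 1 FPKM or more ran from 14291 to 15040. The third A10 sample was the least like its group (Pearson's r of 0.929 and 0.941 with the other samples across genes, where the remaining within-group values ran from 0.945 to 0.988). Markers of Sertoli cells (summed FPKM of 7 genes from 1018 to 5062) and of Leydig cells (6 genes, from 706.9 to 2284) were found in every sample. Amh and the spermatogonial marker Nanos3 stayed under 1 FPKM everywhere. Markers of fat cells (5 genes) summed to 37.1 to 237 FPKM in B0 and 3.92 to 6.37 in A0, and keratins of simple epithelium (4 genes) to 63.6 to 177 in B0 and 5.95 to 21.7 in A0. In B0 compared to A0, 3 of 5 fat cell genes and 3 of 4 keratins were called higher, where 0.0507% of all genes tested were, the fat cell gene Cfd with the largest log2 change (4.83 ± 0.66, SE, adjusted p = 0.0001262 by limma). Neither list stood as high in BA10 or BA50 (at most 15.7 and 12.3 FPKM), and the part of such tissue in the values of B0 was not tested.

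Promoter sequence is shown for the 4 genes below because 3 of them (Sycp3, Hormad1 and Tex12) were among the genes with the deepest falls after busulfan, Sycp1 fell less, and all 4 hold an E-box, the letters CACGTG that many basic helix-loop-helix factors are known to read. RefSeq windows (GRCm38.p6, from 250 bases before to 50 after the start site) were found for all 10 genes, 13 windows in all, and the 160 bases before the start site are printed 5′ to 3′ on the gene's strand. Capitals mark exact matches on either strand to the E-box, to the E2F element TTCCCGC (read as GCGGGAA on the other strand) or to the MYB element AACNGTT, none of which overlap.
Sycp3, chr10:88459427-88459586, plus strand: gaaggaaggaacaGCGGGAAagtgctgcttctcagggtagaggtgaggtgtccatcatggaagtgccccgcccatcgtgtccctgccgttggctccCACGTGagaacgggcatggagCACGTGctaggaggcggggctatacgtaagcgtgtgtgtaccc
Hormad1, chr3:95559517-95559676, plus strand: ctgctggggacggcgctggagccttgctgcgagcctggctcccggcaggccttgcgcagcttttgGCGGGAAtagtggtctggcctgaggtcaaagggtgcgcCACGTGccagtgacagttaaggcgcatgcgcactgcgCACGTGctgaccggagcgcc
Tex12, chr9:50561269-50561428, minus strand: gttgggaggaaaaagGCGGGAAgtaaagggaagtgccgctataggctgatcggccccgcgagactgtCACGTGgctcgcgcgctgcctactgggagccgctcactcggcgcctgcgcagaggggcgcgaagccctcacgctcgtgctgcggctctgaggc
Sycp1, chr3:102936101-102936260, minus strand: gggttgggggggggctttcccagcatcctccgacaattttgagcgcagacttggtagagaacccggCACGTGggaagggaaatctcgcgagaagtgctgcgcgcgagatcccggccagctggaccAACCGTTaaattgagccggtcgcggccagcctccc

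The E-box was found in 5 of the 10 genes (the 4 printed and Syce2) and in 6 of their 13 windows, where 7.15% of all 32851 windows hold it. Sycp3 had copies that begin 64 and 43 bases before its start site, and Hormad1 had copies at 57 and 20 bases. Tex12 had 1 copy at 93 bases and Sycp1 had 1 at 94. In Syce2 the match lay 88 bases before the second of its start sites and downstream of the first. The E2F element was found in 4 genes (Sycp3, Hormad1, Tex12 and Syce2), where 4.6% of all windows hold it. The MYB element was found in Sycp1 only (4.45% of all windows), and the cyclic AMP element TGACGTCA in none of the 10 (1.79%). Whether the matches go with the response to busulfan was not tested. Among the genes with the deepest falls, Sycp3, Hormad1 and Tex12 held both the E-box and the E2F element, and Sycp2 and Hormad2 held neither. Sycp1 held the E-box without the E2F element. Of the genes not called lower below, Syce2 held both, and Syce1, Syce3 and Trip13 held neither in these windows. The member windows had 54.7% to 69.3% G and C, against a median of 52.7% over all windows.

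Levels in A0 spanned from Sycp3 at 113 ± 3.54 FPKM (SD, n = 3) to Hormad2 at 4.58 ± 0.90 FPKM. In order of group mean, Sycp3 was followed by Syce1, and the ranges of these neighbours did not overlap. Hormad1, Syce2 and Syce3 came next with overlapping ranges, then Sycp2 and Sycp1, which also overlapped. Tex12, Trip13 and Hormad2 were lowest, each apart from the next. In B0 the order was another: Syce1 led at 54.0 ± 14.8 FPKM, Syce2 and Syce3 overlapped behind it, Sycp1 and Sycp3 overlapped at about 10.8 to 10.9 FPKM, and Sycp3 had moved from the first to the fifth place. The plot of FPKM by sample shows this change of order.

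**Figure D1:**
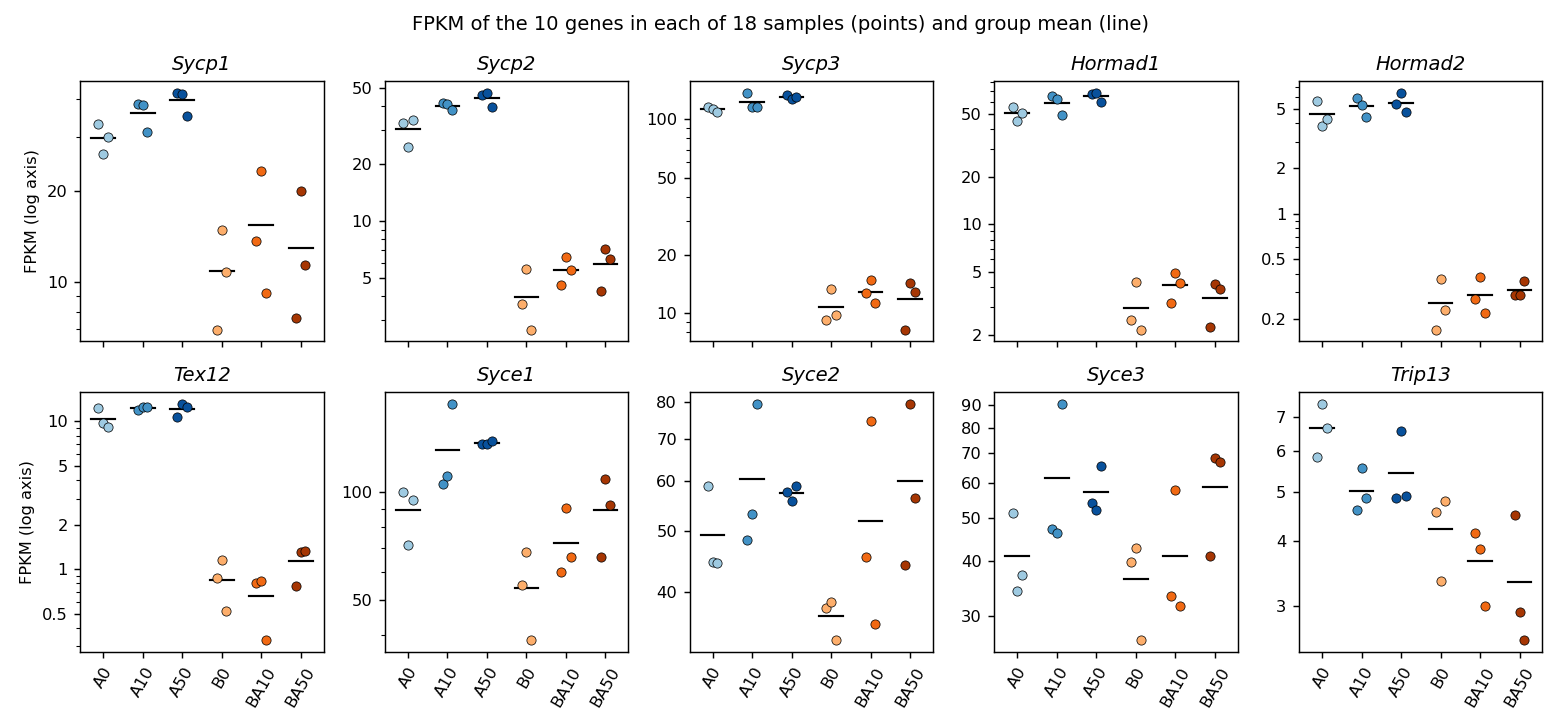
FPKM of each of the 10 genes (log axis, a scale of its own in each panel) in the 3 samples (points) of the 6 groups, with the group mean as a line. Sycp2, Sycp3, Hormad1, Hormad2 and Tex12 sit far lower in B0, BA10 and BA50 than in A0, A10 and A50, Sycp1 lies between, and the busulfan and no-busulfan samples of Syce2 and Syce3 overlap.

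The first comparison asked how busulfan changed these genes, at each AOS concentration (B0 compared to A0, BA10 to A10 and BA50 to A50). A gene was called when limma's adjusted p over all 15790 genes was at most 0.001 and the log2 change of FPKM + 1 was at least 1 in size, the limits of the study's methods. The study set these limits on another test (MARS of DEGseq, on RPKM without an added 1), which needs read counts. Counts of called genes here are therefore not those of the study. In B0 compared to A0, 5 of the 10 genes were called lower and none higher, where 2.49% of all genes tested were called lower. Those 5 were both axial element genes (Sycp2 and Sycp3), both HORMA genes (Hormad1 and Hormad2) and, of the 4 central element genes, Tex12 alone. At 10 μg/mL AOS the called genes were the same 5 (3% of all genes called lower), and at 50 μg/mL again the same 5 (3.36%). The median log2 change of the 10 genes was -1.78, -1.76 and -1.96 in the 3 comparisons, against -0.04, 0.03 and -0.01 over all genes tested. In tissue RNA, fewer cells of a type and less RNA per cell cannot be told apart, so these are falls in the level per testis RNA.

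Sycp3 (NCBI Gene 20962, chr10:88459587-88473236 in GRCm38), the axial element protein that organises chromosome axes, was at 115.82, 113.54 and 108.88 FPKM in the A0 samples and at 9.19, 13.35 and 9.86 FPKM in B0. A10 held 137.18, 116.09 and 115.60 and BA10 12.69, 14.82 and 11.26 FPKM. In A50 the values were 133.24, 128.03 and 130.03, and in BA50 8.25, 14.35 and 12.94 FPKM. Every busulfan sample lay below every sample without it, and the group means of A0 and B0 differed 10.4-fold. The log2 change was -3.28 ± 0.17 (SE, adjusted p = 9.132e-09, limma) in B0, -3.16 in BA10 and -3.39 in BA50.

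Sycp2 (NCBI Gene 320558, chr2:178345295-178407776), the partner of SYCP3 in the axial element, was at 32.64, 24.56 and 33.72 FPKM in A0 and at 3.65, 5.58 and 2.68 FPKM in B0. The A10 values were 41.77, 41.16 and 38.22 and those of BA10 4.60, 6.46 and 5.48 FPKM. The A50 values were 45.64, 47.09 and 39.78 and those of BA50 4.30, 7.12 and 6.33 FPKM. Again no sample with busulfan reached a sample without it. The group means of A0 and B0 differed 7.63-fold, and the log2 change was -2.68 ± 0.20 (SE, adjusted p = 3.441e-07, limma). A fit of A0 and B0 alone, with 4 residual degrees of freedom, gave Sycp2 the same change at an adjusted p of 0.002164, past the limit of 0.001.

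Hormad1 (NCBI Gene 67981, chr3:95559677-95587863), which marks unsynapsed axes and is needed for the checks that act there, had the largest log2 change of FPKM + 1 among the 10 genes in each of the 3 comparisons. By the ratio of group means, which has no added 1, Hormad2 stood higher in B0 (17.8-fold against 17.1-fold) and both Tex12 (18.9-fold) and Hormad2 (17.9-fold) stood higher in BA10 than Hormad1 (14.4-fold). The values of Hormad2 in B0 and BA10 and of Tex12 in BA10 were all under 1 FPKM. At unknown depth the order of these ratios is therefore imprecise. Hormad1 was at 55.41, 45.46 and 50.90 FPKM in A0 and at 2.47, 4.28 and 2.15 FPKM in B0, a 17.1-fold difference of the means. Hormad1 in A10 stood at 64.66, 62.61 and 49.34 and in BA10 at 3.18, 4.88 and 4.23 FPKM. Hormad1 in A50 stood at 66.64, 68.12 and 59.22 and in BA50 at 2.22, 4.17 and 3.89 FPKM. The highest of the 9 busulfan samples was at 4.88 FPKM and the lowest of the 9 others at 45.46. The log2 change was -3.73 ± 0.21 in B0 (SE, adjusted p = 1.751e-08, limma), -3.56 in BA10 and -3.92 in BA50.

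Hormad2 (NCBI Gene 75828, chr11:4345801-4441198), its paralog on unsynapsed axes, was at 5.59, 3.86 and 4.29 FPKM in A0 and at 0.17, 0.37 and 0.23 FPKM in B0. The other samples without busulfan ran from 4.40 to 6.36 FPKM and the other busulfan samples from 0.22 to 0.38 FPKM. The groups were far apart at each concentration, and the means of A0 and B0 differed 17.8-fold. Every busulfan value was under 1 FPKM, so Hormad2 passed the filter through the groups without busulfan, and the fold is imprecise. On the log2 scale of FPKM + 1, which understates the change of a gene with low values, Hormad2 changed by -2.14 ± 0.14 in B0 (SE, adjusted p = 5.866e-08, limma). Its adjusted p was 0.001065 in the fit of A0 and B0 alone, just past the limit.

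Tex12 (NCBI Gene 66654, chr9:50557148-50561268), a central element protein that assembles with SYCE2, was at 12.41, 9.74 and 9.23 FPKM in A0 and at 0.87, 1.15 and 0.52 FPKM in B0. A10 samples held 11.91, 12.46 and 12.59 and BA10 samples 0.80, 0.83 and 0.33 FPKM. A50 samples held 10.76, 13.22 and 12.54 and BA50 samples 0.77, 1.30 and 1.32 FPKM. The highest busulfan sample was at 1.32 FPKM and the lowest sample without busulfan at 9.23. The means differed 12.4-fold between A0 and B0, 18.9-fold between A10 and BA10 and 10.8-fold between A50 and BA50. These folds are imprecise, since the busulfan values lay near or under 1 FPKM. The log2 change was -2.64 ± 0.16 in B0 (SE, adjusted p = 4.883e-08, limma).

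Sycp1 (NCBI Gene 20957, chr3:102818499-102936100), the transverse filament, stood between the genes that fell deeply and those that did not pass the test. It was at 33.12, 26.47 and 30.09 FPKM in A0 and at 6.99, 14.87 and 10.84 FPKM in B0. Sycp1 in A10 measured 38.74, 38.43 and 31.34 and in BA10 at 13.68, 23.22 and 9.25 FPKM. Sycp1 in A50 measured 42.00, 41.62 and 35.33 and in BA50 at 7.61, 20.01 and 11.38 FPKM. No busulfan sample reached the lowest sample without busulfan, and the second sample was the highest in each busulfan group. The log2 change was -1.43 ± 0.33 in B0 (SE, adjusted p = 0.007668, limma), -1.27 in BA10 (0.01313) and -1.63 in BA50 (0.001985), each past the limit of 0.001. Averaged over the 3 concentrations the change was -1.44 ± 0.19 (adjusted p = 2.045e-05) and Sycp1 was called lower. With sample quality weights Sycp1 was called in each of the 3 comparisons (adjusted p = 0.0004295, 0.0001022 and 2.473e-05, limma), and without the second BA50 sample it was called in BA50 (-1.97, adjusted p = 0.0005165).

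**Figure D2:**
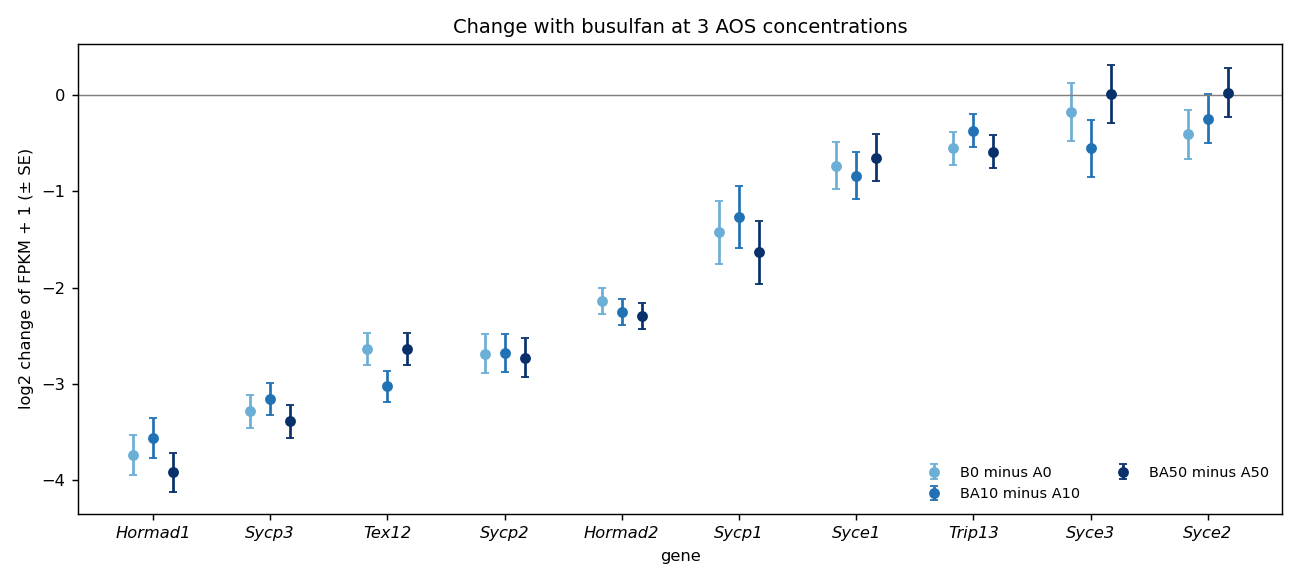
The log2 change of FPKM + 1 with busulfan (points, ± SE from limma) for each gene at 0, 10 and 50 μg/mL AOS. Hormad1, Sycp3, Tex12, Sycp2 and Hormad2 lie at -2.14 or lower in every comparison, Sycp1 between -1.63 and -1.27, and the other 4 genes between -0.84 and 0.02.

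The remaining central element genes behaved otherwise. Syce1 (NCBI Gene 74075, chr7:140777229-140787854), which links SYCP1 to the central element, was at 100.36, 71.37 and 95.31 FPKM in A0 and at 55.27, 68.07 and 38.62 FPKM in B0. Syce1 in A10 measured 105.61, 110.92 and 177.08 and in BA10 at 60.04, 90.27 and 65.80 FPKM. Syce1 in A50 measured 136.80, 136.91 and 139.00 and in BA50 at 66.05, 109.04 and 92.35 FPKM. The groups did not overlap at any concentration, yet the means of A0 and B0 differed only 1.65-fold. The log2 change was -0.73 ± 0.25 in B0 (SE, adjusted p = 0.06363, limma). Averaged over concentrations it was -0.74 ± 0.14 (adjusted p = 0.0007464), under the fold limit, so Syce1 was not called.

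Syce2 (NCBI Gene 71846, chr8:84872111-84887446), the direct partner of TEX12, was at 58.90, 44.57 and 44.39 FPKM in A0 and at 37.71, 38.58 and 33.49 FPKM in B0. Syce2 in A10 measured 48.27, 53.19 and 79.50 and in BA10 at 45.39, 74.79 and 35.51 FPKM. Syce2 in A50 measured 57.55, 55.68 and 58.92 and in BA50 at 44.03, 79.62 and 56.28 FPKM. B0 lay below A0, while the groups overlapped at 10 and at 50 μg/mL, where 1 sample each of A10, BA10 and BA50 (79.50, 74.79 and 79.62 FPKM) stood above the others. The log2 change averaged over concentrations was -0.21 ± 0.15 (SE, adjusted p = 0.2686, limma).

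Syce3 (NCBI Gene 75459, chr15:89390174-89410503), a small central element protein that recruits the others to SYCP1, was at 51.43, 34.29 and 37.22 FPKM in A0 and at 39.85, 42.80 and 26.49 FPKM in B0. Syce3 in A10 measured 47.32, 46.31 and 90.63 and in BA10 at 33.37, 57.90 and 31.71 FPKM. Syce3 in A50 measured 54.10, 52.02 and 65.46 and in BA50 at 40.98, 68.45 and 67.00 FPKM. The groups overlapped at each concentration. The averaged log2 change was -0.24 ± 0.17 (SE, adjusted p = 0.2871, limma), and the sign of the B0 and BA50 changes turned when single samples were left out.

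Trip13 (NCBI Gene 69716, chr13:73912450-73937795) was at 5.85, 7.42 and 6.64 FPKM in A0 and at 4.57, 3.35 and 4.79 FPKM in B0. Trip13 in A10 measured 4.60, 5.56 and 4.87 and in BA10 at 4.15, 3.87 and 2.99 FPKM. Trip13 in A50 measured 4.86, 6.57 and 4.90 and in BA50 at 4.51, 2.92 and 2.57 FPKM. Busulfan samples were lower at each concentration without overlap, by 1.57-fold in the means of B0 and A0. The averaged log2 change was -0.50 ± 0.10 (SE, adjusted p = 0.0009346, limma), under the fold limit.

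Counted without the fold limit, at an adjusted p under 0.05, 7 of the 10 genes were lower in B0 than in A0, where 12.3% of all genes tested were. B0 lay wholly below A0 in 9 of the 10 genes (all but Syce3), BA10 below A10 in 8 and BA50 below A50 in 8 (both without Syce2 and Syce3), where 22.7%, 20.2% and 25.7% of all genes did so. With 3 samples against 3, an exact permutation test cannot give less than 0.1, which is the value of each such gene. Averaged over the 3 concentrations, 6 of the 10 genes were called lower (3.52% of all genes), and 8 had an adjusted p under 0.05 in that direction (24.8%). An exact two-sided permutation of busulfan within each concentration (8000 arrangements) gave its smallest possible p, 0.00025, for those 8 genes, and 0.18975 for Syce2 and 0.21525 for Syce3.

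Whether the genes differed from each other in their response was tested on the log2 ratio of each pair within a sample, permuted within concentrations in the same way. Of 45 pairs, 38 had an adjusted p under 0.05 (exact two-sided permutation, adjusted over the 45 pairs). All 20 pairs of Sycp2, Sycp3, Tex12, Hormad1 or Hormad2 with Syce1, Syce2, Syce3 or Trip13 were among them, with ratios that changed by 2.18 to 3.96 on the log2 scale (each exact p = 0.00025, adjusted p = 0.000363). These sets were divided by the busulfan changes of the same values, so the count of 20 restates that division. The ratios have no added 1, and the busulfan values of Tex12 and Hormad2 lay near or under 1 FPKM. Sycp1 differed from each of the 9 other genes, from Sycp3 by 1.86 and from Syce1 by -0.77 (exact p = 0.0025, adjusted p = 0.003125). TEX12 and SYCE2 form 1 complex, and the Tex12 to Syce2 ratio ran from 0.158 to 0.247 without busulfan and from 0.009 to 0.030 with it. The Sycp1 to Sycp3 ratio, transverse filament to axial element, ran from 0.233 to 0.331 without busulfan and from 0.761 to 1.567 with it. The pairs that did not pass were Syce1, Syce2 and Syce3 each with Trip13, Syce2 with Syce3 (log2 change of the ratio 0.028, exact p = 0.7885), Tex12 with Hormad1 and with Hormad2, and Hormad1 with Hormad2.

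Other genes of synapsis and of the chromosome axis were read from a list of 35 genes, of which 33 passed the filter. In B0 compared to A0, 19 of the 33 were called lower, where 2.49% of all genes tested were, and none higher. The median log2 change of the 33 was -1.27. Averaged over concentrations, 22 of the 33 were called lower (3.52% of all genes), as the plot by role shows. Stra8, which starts the meiotic programme, had the largest fall, from 25.3 ± 6.05 FPKM in A0 to 0.007 ± 0.012 in B0 (SD, n = 3 each, log2 change -4.68 ± 0.20, adjusted p = 2.026e-09, limma). The called genes Ccnb1ip1, Dmc1, Hfm1, Majin, Meiosin, Rad21l, Rec114, Stra8, Terb2 and Tex11 had means under 1 FPKM in every busulfan group. They passed the filter through the groups without busulfan, so the count of 19 rests in part on the groups where they were high. Six6os1, a further central element gene that was named after its values were seen, was at 10.73, 12.37 and 9.21 FPKM in A0 and at 2.24, 1.66 and 1.45 FPKM in B0 and was called lower (log2 change -2.08 ± 0.12, adjusted p = 3.293e-08, limma). The central element thus held 2 genes that were called lower (Tex12 and Six6os1) and 3 that were not. The axis cohesins differed as well: Rad21l was called lower in B0 (-1.60 ± 0.18, adjusted p = 2.473e-05, limma). Rec8, also named after its values were seen, was at 8.96 ± 2.19 FPKM in A0 and 8.73 ± 2.07 in B0 (log2 change -0.04 ± 0.28, adjusted p = 0.965). Stag3 (-1.24 ± 0.22, adjusted p = 0.001148), Smc1b (-1.27 ± 0.33, adjusted p = 0.01647) and Smc3 (-0.18 ± 0.12, adjusted p = 0.4017, limma) were not called in B0. Averaged over concentrations, Stag3 and Smc1b were called lower.

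**Figure D3:**
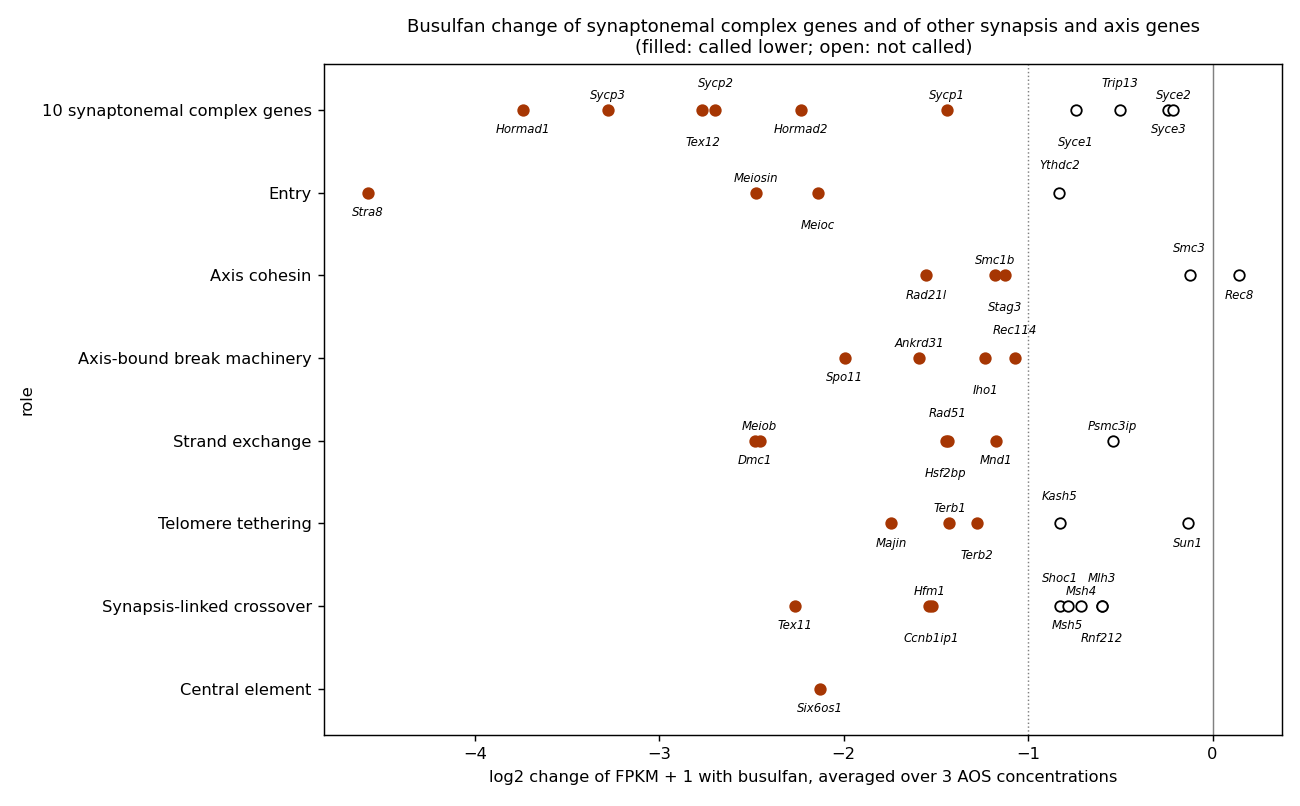
The log2 change of FPKM + 1 with busulfan, averaged over the 3 AOS concentrations, for the 10 synaptonemal complex genes (top row) and 33 other synapsis and axis genes by role, with filled points for genes called lower and a dotted line at the fold limit of -1. Stra8 lies farthest left at -4.58, and Rec8 is the only point above 0, at 0.14.

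Markers of the germ cell stages differed in whether they fell with busulfan. The summed FPKM of 4 early spermatocyte genes (Prdm9, Dmc1, Meiob and Gm960) was 19.9 to 23.5 in A0 and 3.44 to 4.69 in B0, and 3 of the 4 were called lower. Of all genes tested, 2.49% were called lower in B0 compared to A0. Of 7 pachytene spermatocyte genes 2 were called lower (sum 913 to 1463 in A0 and 603 to 1062 in B0), among them Piwil1, a piRNA-binding protein (log2 change -3.15 ± 0.23, adjusted p = 2.22e-07, limma). Of 6 spermatogonial genes 2 were called lower (Sohlh1 and Dmrt1). Of 3 germ cell genes Dazl alone was called lower (log2 change -3.52 ± 0.34, adjusted p = 5.302e-06, limma). None of 5 round spermatid genes was called (log2 changes from 0.04 to 0.37, sum 174 to 311 in A0 and 212 to 303 in B0), nor any of 5 elongating spermatid genes (2339 to 4133 in A0 and 2134 to 3212 in B0). None of these spermatocyte and spermatid markers was under 1 FPKM in every sample. However, the called genes Dmc1, Gm960, Sohlh1 and Dmrt1 had means under 1 FPKM in every busulfan group. They passed the filter through the groups without busulfan. Dmc1 and Meiob stand in the list of 35 genes too.

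Set against these markers, the members were followed separately inside the 9 samples without busulfan and inside the 9 with it (40 relations, 10 genes by 2 lists by 2 sets of samples, adjusted over the 40). Syce2 followed the mean log2 level of the 5 round spermatid genes both without busulfan (Pearson's r = 0.98, exact permutation p = 3.307e-05, adjusted p = 0.0006614, Spearman's rho = 0.93, exact p = 0.0007496, adjusted p = 0.009994) and with it (r = 0.98, exact permutation p = 3.307e-05, adjusted p = 0.0006614, rho = 0.95, exact p = 0.0003527, adjusted p = 0.009994). Without the 2 samples farthest from the median of the markers, r was 0.93 and 0.92. These p-values treat the 9 samples as independent, whereas same-numbered samples of BA50 deviated together with those of B0 and of BA10. The samples of each set also span the AOS groups. The permutations exchanged samples between these groups, as did those with the replicate block below. Differences between AOS groups therefore enter each r and p-value. Mean Syce2 was 49.29, 60.32 and 57.38 FPKM in A0, A10 and A50 and 36.59, 51.90 and 59.98 in B0, BA10 and BA50. The share of all genes with such an r is not given. With the replicate number as a block, r of Syce2 was 0.99 without and 0.97 with busulfan (each exact permutation p = 0.00463, the smallest that 216 arrangements allow), but the adjusted p was 0.09259, and none of the 40 relations passed after adjustment. A relation at that smallest p cannot pass alone over 40 relations, so the blocked test cannot decide here. Blocked r was 0.92 and 0.89 for Syce3, 0.82 and 0.88 for Syce1 and, with busulfan, 0.73 for Sycp2. Without the block, Syce3 followed these markers too (r = 0.92, exact permutation p = 0.00062, rho = 0.87, and r = 0.91, exact p = 0.0008377, rho = 0.93), with r of 0.71 and 0.94 without the 2 farthest samples. Syce1 had r = 0.84 without busulfan (exact permutation p = 0.005837, adjusted p = 0.03872, rho = 0.70, adjusted p = 0.1438), which fell to 0.50 without the 2 farthest samples and so rests on them, and r = 0.91 with busulfan (exact permutation p = 0.0006559, adjusted p = 0.006559, rho = 0.90). Without the block Sycp2 passed with busulfan only (r = 0.82, exact permutation p = 0.006776, adjusted p = 0.03872, rho = 0.90, and r = 0.76 without the 2 farthest samples), its r without busulfan being 0.40 (exact permutation p = 0.2887), and whether these differ was not tested. Sycp3 had r = 0.09 without busulfan (exact permutation p = 0.8178) and r = 0.71 with it (adjusted p = 0.1374). Trip13 had negative values in both sets (r = -0.55 and -0.48, adjusted exact permutation p = 0.2981 and 0.3732). No relation with the early spermatocyte markers passed in Pearson's r (smallest adjusted exact permutation p = 0.1108, Syce2 with busulfan, r = -0.73, where rho was -0.85 with an adjusted p of 0.03471). The highest samples of Syce2 and Syce3 in A10 (the third) and in BA10 and BA50 (the second) were also the highest of their groups in round spermatid markers, as the plot against those markers shows. In BA50 the third sample of Syce3 (67.00 FPKM) was close to the second (68.45) while its round spermatid sum was lower (409 against 572). The part of cell composition in this was not tested.

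**Figure D4:**
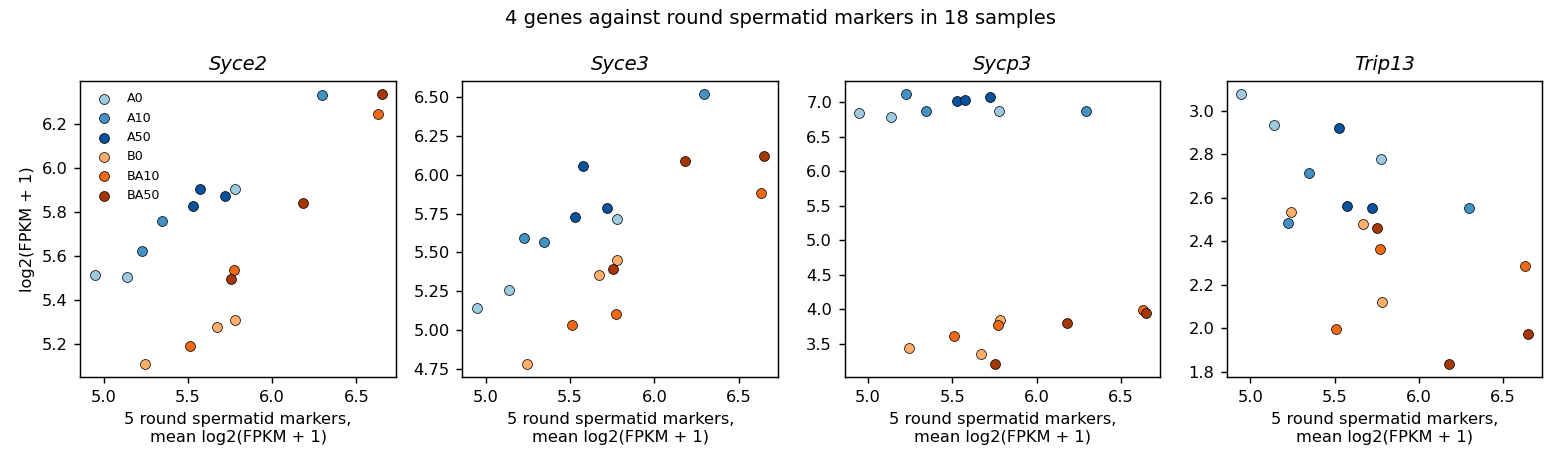
The log2(FPKM + 1) of Syce2, Syce3, Sycp3 and Trip13 (vertical axes) against the mean log2(FPKM + 1) of 5 round spermatid markers (horizontal axes) in the 18 samples, coloured by group. Syce2 and Syce3 rise along the axis within the samples without busulfan and within those with it, while Sycp3 forms 2 bands and Trip13 has negative r in both sets.

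The second comparison asked whether AOS changed these genes, without busulfan (A10 and A50 compared to A0) and after it (BA10 and BA50 compared to B0). None of the 10 genes was called in either direction by limma in any of the 4 comparisons, and 0% of all genes tested were. None of the 10 had an adjusted p under 0.05. The paper, with its own test, reported genes up and down in each of these 4 comparisons, so the 0% holds for limma on these values. The smallest adjusted p among the 10 genes was 0.3267 for A10, 0.2618 for A50, 0.7491 for BA10 and 0.1248 for BA50. At an unadjusted p under 0.05 there were 1, 2, 0 and 4 of the 10, where 15.2%, 15.6%, 5.05% and 24.3% of all genes passed. The comparisons of a pair share the samples of A0 or of B0, so they are not independent of each other. Median log2 changes of the 10 genes were 0.25, 0.29, 0.32 and 0.20, against -0.06, -0.06, -0.03 and -0.04 over all genes tested.

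The direction of these small differences was nearly uniform, but the 10 genes were read in the same samples, so their signs are not separate evidence. Compared to A0, 9 of the 10 genes had a log2 change above 0 at each concentration, the exception being Trip13, where 42.1% (A10) and 41.6% (A50) of all genes had one. Compared to B0 there were 8 in BA10 (all but Tex12 and Trip13) and 9 in BA50 (all but Trip13), where 44.4% and 44.7% of all genes had one. The signs of Syce3 and Hormad2 in BA10 and of Sycp1 and Sycp3 in BA50 turned when single samples were left out. A50 lay wholly above A0 in 6 of the 10 genes (Sycp1, Sycp2, Sycp3, Syce1, Syce3 and Hormad1), where 17.6% of all genes did. A10 lay above A0 in 2 (Syce1 and Sycp2, 7.81% of all genes) and below it in Trip13 (12.2%). BA10 lay above B0 in none (3.64%), and BA50 lay above B0 in Syce2 alone (11.2%). Each gene whose groups did not overlap had an exact permutation p of 0.1, the smallest that 3 samples against 3 allow.

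Syce1 and Sycp2, which had the largest log2 changes in A50 compared to A0 (0.64 and 0.54), are given in full. In A10 Syce3 (0.52) and in BA50 Syce3 (0.67) and Syce2 (0.66) had larger values than Sycp2 (0.41 and 0.50), and in BA10 Syce2, Sycp1, Syce1 and Sycp2 lay between 0.42 and 0.43. The group means of Sycp2 were 30.3 ± 5.01 FPKM in A0, 40.4 ± 1.90 in A10 and 44.2 ± 3.87 in A50 (SD, n = 3). After busulfan they were 3.97 ± 1.48 in B0, 5.51 ± 0.93 in BA10 and 5.92 ± 1.45 in BA50, with overlapping ranges. In A50 compared to A0 the log2 change of Sycp2 was 0.54 ± 0.20 (SE, adjusted p = 0.2618, limma). Syce1 was at 89.0 ± 15.5 FPKM in A0, 131 ± 39.8 in A10 and 138 ± 1.24 in A50. Its log2 change in A10 was 0.53, and 0.29 without the third A10 sample, while that of Syce3 went from 0.52 to 0.21. In BA50 compared to B0 it had a log2 change of 0.72 ± 0.25 (adjusted p = 0.1248, limma), with 54.0 ± 14.8 FPKM in B0 and 89.1 ± 21.7 in BA50.

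**Figure D5:**
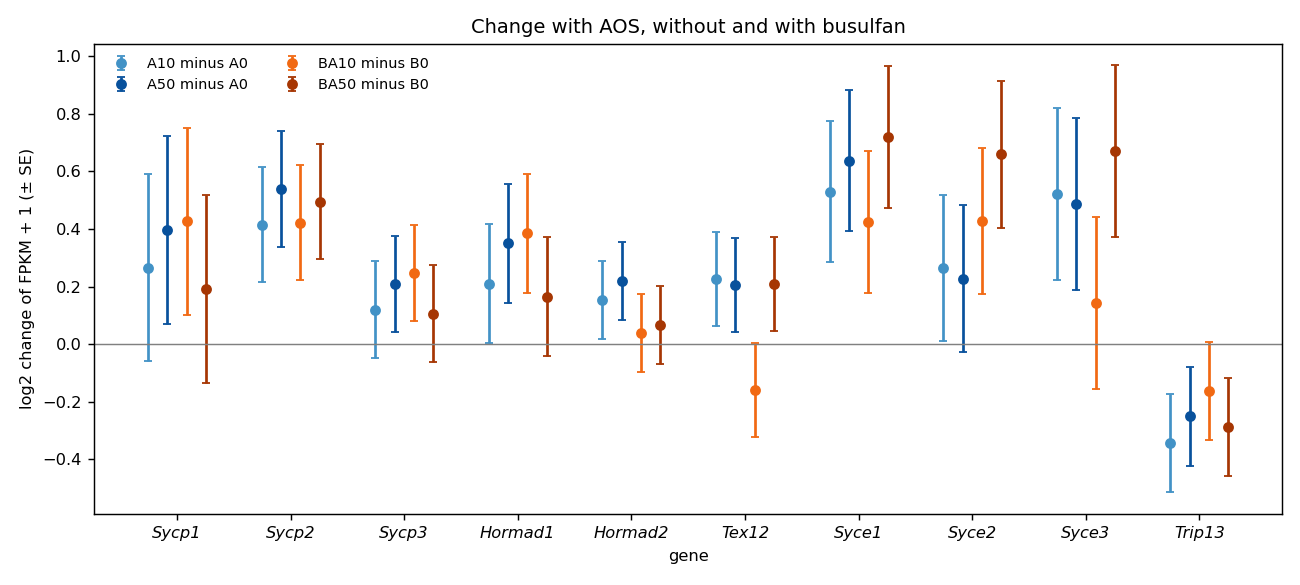
The log2 change of FPKM + 1 with AOS (points, ± SE from limma) for each of the 10 genes at 10 and 50 μg/mL, without busulfan (blues) and after it (oranges). The points of Syce1 lie between 0.42 and 0.72, those of Trip13 between -0.34 and -0.16, and no point passed the test.

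With both concentrations and both busulfan states averaged, AOS gave a log2 change of 0.58 ± 0.15 for Syce1 (SE, adjusted p = 0.06006, limma) and 0.47 ± 0.12 for Sycp2 (adjusted p = 0.0605). Trip13 had -0.26 ± 0.11 (adjusted p = 0.1139, limma). No gene of the 10 was called, nor any of all genes tested (0%), and none of the 10 had an adjusted p under 0.05. At an unadjusted p under 0.05 there were 6 of 10, where 33.5% of all genes passed. An exact two-sided permutation of AOS within busulfan states (7056 arrangements) gave p = 0.001417 for Syce1, 0.001984 for Sycp2, 0.02055 for Trip13, 0.023526 for Syce2, 0.036139 for Syce3 and 0.04691 for Hormad1, none adjusted. No marker gene was called in this comparison. The median log2 change of marker lists was 0.56 for pachytene spermatocyte, 0.42 for round spermatid and 0.55 for elongating spermatid genes, but -0.12 for early spermatocyte and -0.10 for spermatogonial genes. It was -0.22 for Sertoli genes, and lowest for the other-tissue lists that stood high in B0, fat cell (-1.30) and simple epithelium (-1.45). The part of cell composition in these differences was not tested.

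The third comparison asked whether the AOS change differed after busulfan from the change without it. The difference of the changes was called for none of the 10 genes at 10 or at 50 μg/mL (0% of all genes at both). Their smallest adjusted p was 0.9098 at 10 μg/mL and 0.9431 at 50 μg/mL (limma), and none of the 10 had an unadjusted p under 0.05, where 3.97% and 6.28% of all genes did. For the 5 genes with the deepest falls, every BA10 and BA50 sample stayed below every A0 sample. The highest BA10 or BA50 sample was 14.82 FPKM for Sycp3, 7.12 for Sycp2, 4.88 for Hormad1, 0.38 for Hormad2 and 1.32 for Tex12. The lowest A0 samples were at 108.88, 24.56, 45.46, 3.86 and 9.23 FPKM in the same order. The 5 genes were picked by their busulfan falls, so this partly restates that choice, and the share of all genes was not counted. Mean BA50 and A0 levels were 89.15 and 89.01 FPKM for Syce1, 59.98 and 49.29 for Syce2 and 58.81 and 40.98 for Syce3. In BA10 those means were 72.04, 51.90 and 40.99 FPKM, and the ranges of BA10 and BA50 overlapped A0. The BA10 and BA50 means of Sycp1 and Trip13 lay below those of A0.

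The genes with the pattern most like the mean of the 10 standardised members over the 18 samples were Rexo5 (Pearson's r = 0.99), Zmynd19 (0.99), Meioc (0.99), Tex14 (0.99) and Bub1 (0.99), where samples share the busulfan contrast and the values are a description. Meioc, for example, had group means of 20.6, 28.0 and 29.9 FPKM in A0, A10 and A50 and of 3.88, 5.88 and 6.24 in B0, BA10 and BA50.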

How the data were processed

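RNA-seq values of 18 cultured testis samples were analysed, 3 in each of 6 groups taken from the sample labels. The authors deposited 1 table of FPKM values with 2 decimals. The submitters' processing notes name HISAT, Bowtie2, RSEM and GRCm38.p5, whereas the supplementary methods name SOAPaligner and RPKM, and which made the table is not given in the sources used here. Read counts could not be recovered: 8.1% of 16158 ratios in 1033 low genes came within 0.05 of a whole number, where 10% would by chance. Depth is therefore unknown, and no counting interval was computed.

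Gene numbers were matched to RefSeq symbols of GRCm38.p6, whose chromosome coordinates equal those of GRCm38.p5. Of 22657 rows, 20811 had an NCBI number and 20656 a symbol. Values were tested with limma 3.58.1 in R 4.3.3 (lmFit followed by eBayes, trend set to true) after log2(FPKM + 1) was taken, each group having 1 coefficient, 12 residual and 2.56 prior degrees of freedom, and Benjamini-Hochberg adjustment over 15790 genes. Single values were also tested by exact two-sided permutation. The steps ran in Python 3.11.15 (SciPy 1.17.1, NumPy 2.4.6, pandas 2.3.3, and figures by matplotlib 3.10.9) and were tested on simulated data.

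The 10 genes, the lists of other genes and the tests were chosen with earlier results of these data known. All 10 genes are named. From the other lists the called genes with the largest rise or fall in their list are named. Also named are Six6os1, the axis cohesins, the early spermatocyte genes, and called genes with means under 1 FPKM in every busulfan group. The 5 genes most like the members are named as well. The replicate numbers come from the labels, which do not say that a number marks a shared repeat or animal. Deviations of same-numbered samples from their group means correlated above 0.1 in 16 of 45 pairs of samples. Of the groups compared, all 3 pairs did so in BA50 and B0 only (0.562, 0.422 and 0.138), as they did in BA10 and BA50 (0.353, 0.674 and 0.442), which were not compared. Therefore a replicate block was also fitted to B0 and BA50 alone and used in the relations with marker lists, both chosen after seeing the data. Alternatives were a replicate block, the compared groups alone, a pseudocount of 0.1, no filter, a mean of at least 5 FPKM, equal sums, quantile normalization, eBayes without trend or robust, sample quality weights, each sample left out, and adjusted p under 0.05 without a fold limit.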

Additional observations from a re-analysis of the deposited data

How the results depend on the processing

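Many of the 220 recomputed counts of called genes were 0 against 0, in the AOS comparisons and the differences of changes. Hardly any of all genes was called there under any setting, so those counts say little about stability. Of the 220, 219 stayed within 1.5 times the reported count. The exception was B0 compared to A0 in a fit of those groups alone, which called 3 of the 10 genes in place of 5 and lost Sycp2 and Hormad2. That fit rests on 6 samples in place of 18. Over all genes it called 58 lower in place of 393, and 49 in place of 474 in BA10 and 170 in place of 530 in BA50. The filter of at least 5 FPKM called 184, 260 and 276, and 309 in place of 556 for the average over concentrations, for which a pseudocount of 0.1 called 838. Hormad2 and Trip13 dropped out under that filter. With samples left out in turn the count was 5 in B0 and in BA10, 5 to 6 in BA50 (Sycp1 joined without the second BA50 sample) and 6 for the average over concentrations, and 0 in every AOS comparison. With the replicate block the counts were 5, 5 and 5 for busulfan at the 3 concentrations, 6 for their average and 0 for AOS, and the block with only B0 and BA50 in the fit, chosen after seeing the data, also called 0, so the block changed no call of a busulfan or AOS change.

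Of 1652 recomputed log2 changes of single genes, 19 changed sign, each in a comparison in which the gene had not been called. Syce2 in BA50 compared to A50 (0.02) became -0.0598 with equal sums, -0.0335 with quantile normalization, -0.001 with sample quality weights, and ran from -0.20 to 0.22 with samples left out. Syce3 in the same comparison (0.01) became -0.0713 with equal sums, -0.0427 with quantile normalization and ran from -0.12 to 0.25. Syce3 in BA10 compared to B0 became -0.10 with sample quality weights and ran from -0.13 to 0.30, and in B0 compared to A0 from -0.30 to 0.0326. Hormad2 in BA10 compared to B0 ran from -0.011 to 0.10. In BA50 compared to B0, Sycp1 ran from -0.15 to 0.49 and Sycp3 from -0.039 to 0.33. The busulfan falls of Sycp2, Sycp3, Tex12, Hormad1 and Hormad2 kept their sign under every alternative in which the gene was fitted, Hormad2 having no value under the filter of at least 5 FPKM. No relation with the markers passed after adjustment with the replicate block, added after seeing the data. Its 216 arrangements allow no exact permutation p below 0.00463. Syce2 reached that floor in both sets and still had an adjusted p of 0.09259. The blocked test therefore cannot decide whether the relations depend on the block. Depth is unknown, and 3 samples per group limit what AOS differences below 1 on the log2 scale could show.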

Other observations

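The genes most like 2 subsets of the members were read after the values had been seen, as a description over the same 18 samples. Those most like the mean of Syce1, Syce2 and Syce3 were Rfc2 (Pearson's r = 0.99), Ppp1r14bl (0.98), Oscp1 (0.98), Lypd4 (0.98) and Ptdss2 (0.98), and Lypd4 stood at 178 FPKM in A0 and 138 in B0. Those most like the mean of Sycp2, Sycp3, Tex12, Hormad1 and Hormad2 were Slc25a31 (1.00), Gpat2 (1.00), Mov10l1 (0.99), Dtl (0.99) and Stk31 (0.99). Mov10l1, a helicase of the germline piRNA pathway, stood at 18.1 FPKM in A0 and 0.41 in B0, and Slc25a31, an ADP/ATP carrier of germ cell mitochondria, at 19.7 and 1.01.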
